A study of Homo sapiens with 6 samples.

Results

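The genes of fatty acid synthesis, elongation and activation were followed in Kasumi-1 cells given shRNAs against JMJD1C, a nuclear protein with a JmjC domain. They are 38 named genes of the 62016 in each table, chosen by symbol. The listed symbol was found for 37 genes, and HACD3 was found by its Ensembl identifier under the older name PTPLAD1. Kasumi-1 is a human acute myeloid leukemia line of myeloblasts that carries the AML1-ETO fusion, so the controls carry it too. Cells were infected with pLKO viruses that express JMJD1C shRNA63, JMJD1C shRNA95 or a control shRNA, and RNA was taken after 4 days. Each of these 3 groups had 2 libraries, and all 6 libraries came from this one cell line. A further table of the authors set 1 library with an AML1-ETO shRNA against 1 control library, both from another study.

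The values are FPKM, which count fragments relative to transcript length and to all mapped fragments, and the authors gave 1 combined FPKM per group. The values of single libraries are not analysed here, and each error was obtained from the authors' columns as fold change (log2) over test statistic, without sign. Genes were counted as called where the q of the authors, which is their p adjusted over all genes tested in a table, was under 0.05. The labels do not say whether the 2 libraries of each group had cultures of their own, so these p-values may measure technical spread only. The depth per library is unknown. Genes with the lowest values, if read equally often in both groups, put depth at 0.788 times the control for shRNA63 and at 0.708 times for shRNA95. JMJD1C itself stood at 13.7 FPKM with shRNA63, against 30.4 FPKM in control cells (q = 0.00214 in the authors' deposited table). The libraries labelled shRNA95 had 25.1 FPKM, against 29.4 FPKM in control cells (q = 0.938 in the authors' deposited table), so its mRNA gives no check of that label. Of 5 markers of the line, KIT, CD34, CD33 and RUNX1T1 were at 1 FPKM or more, and MPO was listed at 0 with a status that marks too many reads to be tested. Of 10 granulocyte and monocyte markers 9 reached 1 FPKM in a group and CD14 did not, and 6 of these 9 were called higher with each hairpin. Of all genes tested 2.52% were called higher with shRNA63 and 3.11% with shRNA95. The called markers were not the same: AZU1, CTSG, LYZ and MNDA were called with both hairpins. ELANE and PRTN3 were called with shRNA63 only, and BPI and S100A9 with shRNA95 only. The summed level of the 10 markers came mostly from PRTN3, ELANE and AZU1. It was 15177 FPKM with shRNA63 against 5946 FPKM in control cells, and 8784 FPKM with shRNA95 against 5767 FPKM in control cells. These markers were not set against the fatty acid genes. Their part in any result on fatty acid genes was not tested, and in bulk RNA a change in the share of a cell type and a change in RNA per cell cannot be told apart. Markers of B cells, T cells, megakaryocytes and epithelium had 1 gene each that reached 1 FPKM, and erythroid markers had none. Of these, CD79A of B cells (q = 0.0185) and ITGA2B of megakaryocytes (q = 0.0324) were called lower with shRNA63 in the authors' deposited table. Of the line's own markers KIT was called lower and CD33 higher with shRNA63, and CD34 higher with shRNA95. The part of these changes in any result below was not tested.

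Fatty acid synthesis starts with citrate, which SLC25A1 carries out of mitochondria and ACLY splits into acetyl-CoA and oxaloacetate. ACACA and ACACB carboxylate acetyl-CoA to malonyl-CoA, and FASN joins these units into palmitate with NADPH, part of which comes from the malic enzyme ME1. Elongases, desaturases and acyl-CoA synthetases then lengthen, desaturate and activate the chains for membranes and stored fat. SREBP factors are known activators of many of these genes in animal cells.

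Of the 38 genes, 33 were measured, meaning that a group reached 1 FPKM, and these 33 were the same in both JMJD1C tables. The other 5 were ELOVL2, ELOVL4, ACSL6, THRSP and MLXIPL, all under 1 FPKM in every group. Among the measured genes 9 had over 100 FPKM in the control cells of the shRNA63 table, 19 had 10 to 100 FPKM and 5 had less. In the shRNA95 table FADS1 and HACD3 lay just under 100 FPKM in control cells, each at 98.6 FPKM. FADS2 had the highest level, followed in control cells by FASN, TECR and ACLY in both tables. The lowest measured levels were those of ME1 and ELOVL7. Of the 33, 11 share their listed locus with another gene of at least 1 FPKM. FADS1 and FADS2 are listed at one common locus with each other and with C11orf9, DAGLA, C11orf10, FEN1 and further genes, so their values are uncertain.

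**Figure D1:**
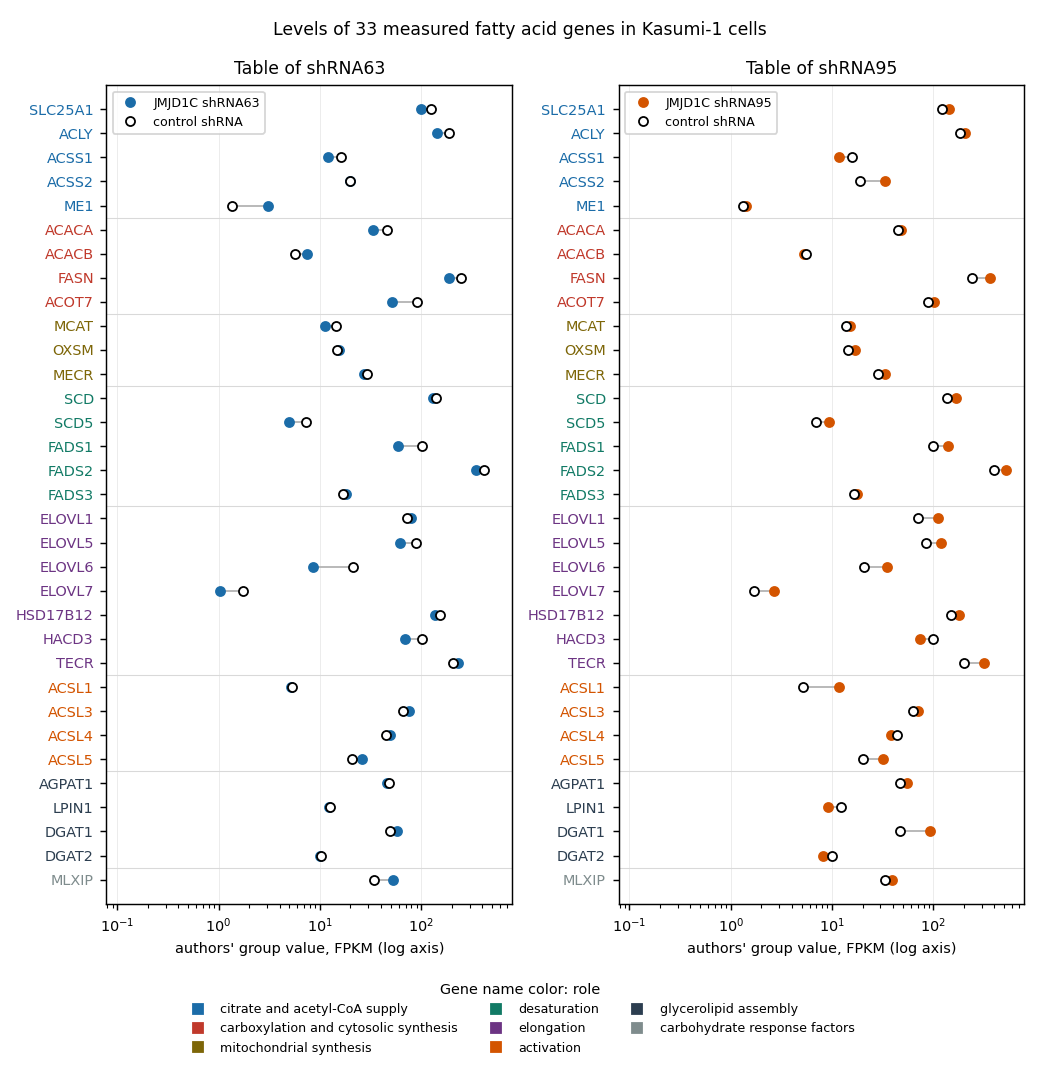
Levels of the 33 measured genes as the authors' group FPKM on a log axis, 1 row per gene, in the shRNA63 table (left) and the shRNA95 table (right). Filled points are the JMJD1C hairpin, open points the control shRNA and grey lines join them; ELOVL6 stood at 8.64 FPKM with shRNA63 and at 34.9 FPKM with shRNA95.

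With shRNA63 the pathway held 1 gene that rose and 1 that fell. ME1, which makes NADPH from malate, stood at 3.05 FPKM with shRNA63, against 1.36 FPKM in control cells. This is 2.25 times the control level, and the authors' deposited table gives 1.17 as the log2 fold change (error 0.28, q = 0.00214). ME1 was therefore the gene that rose, from one of the lowest levels of the pathway. ACOT7, a thioesterase that splits long acyl-CoA back to free fatty acid, stood at 51.6 FPKM with shRNA63, against 91.3 FPKM in control cells. That is 56.5% of the control level, and the authors' deposited table gives -0.82 as the log2 fold change (error 0.26, q = 0.00214). ACOT7 was the gene that fell. Of all 14298 genes tested at this level with shRNA63, 2.52% were called higher and 3.29% lower, 5.81% together, so 2 of 33 is near the background. At an unadjusted p under 0.05 there were 2 higher and 5 lower genes, where all genes gave 7.08% and 7.48%, 14.6% together. The lower ones were ACOT7, ACSS1, SCD5, ELOVL5 and HACD3, and the higher ones ME1 and MLXIP. The median log2 ratio of the 33 genes, computed as log2((FPKM + 1)/(FPKM + 1)), was -0.09, beside 0.01 for all genes tested, with 21 of the 33 fold changes negative. Among all genes tested 6998 of 14298 were negative.

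In the libraries labelled shRNA95, 3 genes rose and none fell. DGAT1, which makes triglyceride from diacylglycerol, stood at 91.7 FPKM with shRNA95, against 47.3 FPKM in control cells. The log2 fold change was 0.96 (error 0.35, q = 0.00401) in the authors' deposited table, close to a doubling. ELOVL1, an elongase of saturated and monounsaturated very long chains, stood at 110.5 FPKM with shRNA95, against 70.9 FPKM in control cells, a log2 fold change of 0.64 by the authors' deposited table (error 0.28, q = 0.0341). ACSL5, an acyl-CoA synthetase of mitochondria and endoplasmic reticulum, had 32.2 FPKM with shRNA95, against 20.3 FPKM in control cells. The authors' deposited table gives 0.66 on the log2 scale (error 0.28, q = 0.0447), so ELOVL1 and ACSL5 passed the threshold by little. The 95% intervals of all 3 exclude 0, but they come from the same test statistic as the calls and add no separate support. Of all 14200 genes tested with shRNA95, 3.11% were called higher and 2.01% lower, 5.11% together. At an unadjusted p under 0.05 there were 7 higher and 2 lower genes of 33, where all genes gave 8.09% and 5.36%, 13.5% together. Beside the called genes the higher ones were SCD5, ELOVL5, ELOVL7 and ACSL1, and the lower ones were ACSS1 and HACD3. The median log2 ratio was 0.23, beside 0.03 for all genes tested, with 27 of 33 fold changes positive. Among all genes tested 7664 of 14200 were positive.

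**Figure D2:**
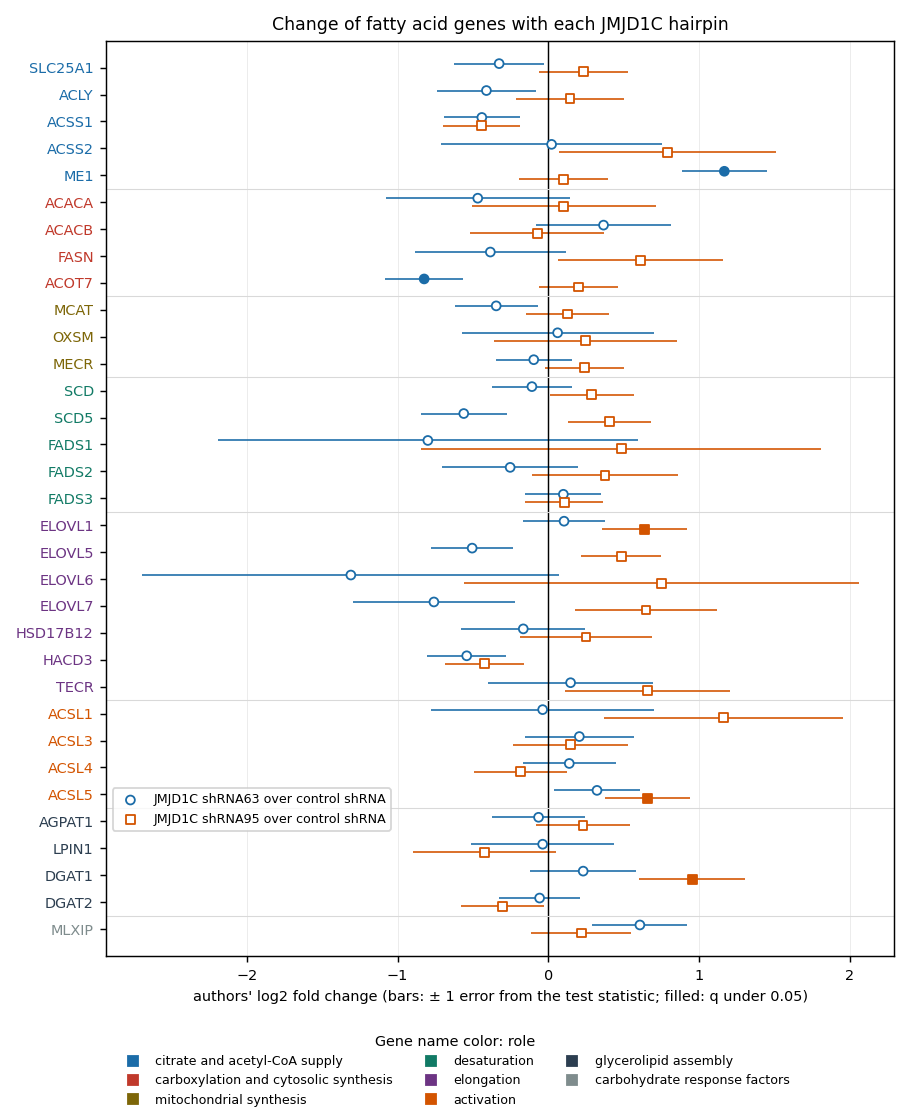
The authors' log2 fold change of each measured gene with shRNA63 (circles) and with shRNA95 (squares) over control shRNA; bars are 1 error and filled points have q under 0.05. ME1 and ACOT7 are filled for shRNA63, and ELOVL1, ACSL5 and DGAT1 for shRNA95.

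The promoters of ME1, ACOT7, ELOVL1 and ACSL5 are shown because these genes carry calls, and that of DGAT1, the fifth called gene, is not shown. The files list ME1 on chromosome 6 from 83920108 to 84140797, ACOT7 on chromosome 1 from 6324333 to 6454451 and ELOVL1 on chromosome 1 from 43829068 to 43833697 in hg19. ACSL5 is listed on chromosome 10 from 114133776 to 114188138, where RP11-324O2.3 overlaps it. The sequences are the 250 bases before the first listed RefSeq start in GRCh38.p14, a later build than that of the files, read 5′ to 3′ on the strand of the gene. They lie at chr6:83431052-83431301 (minus strand) for ME1, chr1:6393768-6394017 (minus) for ACOT7, chr1:43368012-43368261 (minus) for ELOVL1 and chr10:112375018-112375267 (plus) for ACSL5. ACOT7 has 4 listed starts and ACSL5 has 2. Capitals mark the CCAAT box (CCAAT), the GC box (GGGCGG), the E-box (CACGTG) and the core of the sterol regulatory element (TCACNCCAC), searched on both strands.
ME1: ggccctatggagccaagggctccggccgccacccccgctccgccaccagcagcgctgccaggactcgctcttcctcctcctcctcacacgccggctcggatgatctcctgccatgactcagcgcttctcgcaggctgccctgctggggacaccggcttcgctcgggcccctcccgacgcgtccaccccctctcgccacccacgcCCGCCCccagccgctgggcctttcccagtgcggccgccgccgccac
ACOT7: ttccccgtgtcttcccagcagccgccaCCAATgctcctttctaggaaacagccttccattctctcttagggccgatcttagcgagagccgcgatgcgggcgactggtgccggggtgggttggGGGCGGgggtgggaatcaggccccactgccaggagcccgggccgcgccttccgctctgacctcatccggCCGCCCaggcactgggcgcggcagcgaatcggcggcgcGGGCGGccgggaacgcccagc
ELOVL1: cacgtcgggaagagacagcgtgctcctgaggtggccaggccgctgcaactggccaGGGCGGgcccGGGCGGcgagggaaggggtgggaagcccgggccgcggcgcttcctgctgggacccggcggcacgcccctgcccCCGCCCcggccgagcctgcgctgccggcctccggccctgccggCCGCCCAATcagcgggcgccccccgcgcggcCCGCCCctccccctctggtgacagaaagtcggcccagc
ACSL5: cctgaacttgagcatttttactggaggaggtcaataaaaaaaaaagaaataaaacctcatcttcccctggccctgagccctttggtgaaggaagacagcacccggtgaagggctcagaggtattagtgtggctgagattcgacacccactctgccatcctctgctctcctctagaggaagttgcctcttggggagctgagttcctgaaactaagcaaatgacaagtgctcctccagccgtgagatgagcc
The ELOVL1 window held 5 GC boxes and 1 CCAAT box, 1 GC box overlapping the CCAAT box. The ACOT7 window held 3 GC boxes and 1 CCAAT box, the ME1 window 1 GC box and the ACSL5 window none of these letters. Over all listed starts, 33 of the 38 genes were matched, of which 30 held a GC box and 19 a CCAAT box. These are not the 33 measured genes, since FASN, OXSM, HSD17B12, DGAT1 and DGAT2 had no window and were not searched. Among all 27305 genes in the RefSeq set, which includes noncoding genes, 46.2% held a GC box and 37.0% a CCAAT box. An E-box stood in 2 of the 33 matched genes, ELOVL4 and ELOVL5, beside 7.73% of all genes. The sterol element core also stood in 2, ACSL1 and ACSL6, beside 1.09% of all genes. ELOVL4 and ACSL6 were under 1 FPKM in every group.

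The genes that supply citrate and acetyl-CoA had no call apart from ME1. SLC25A1 stood at 99.3 FPKM with shRNA63, against 124 FPKM in control cells, and at 142 FPKM with shRNA95, against 121 FPKM in control cells. ACLY stood at 143 FPKM with shRNA63, against 190.0 FPKM in control cells, and at 204 FPKM with shRNA95, against 184 FPKM in control cells. Both lay below control with shRNA63 and above it with shRNA95, and neither was called. ACSS2, which makes acetyl-CoA from acetate in the cytosol and nucleus, had 19.9 FPKM with shRNA63, against 19.6 FPKM in control cells. With shRNA95 it had 32.9 FPKM, against 19.0 FPKM in control cells, with a log2 fold change of 0.79 (error 0.72, q = 0.580) in the authors' deposited table. Its mitochondrial relative ACSS1 had 12.0 FPKM with shRNA63, against 16.2 FPKM in control cells, and 11.6 FPKM with shRNA95, against 15.7 FPKM in control cells. ACSS1 was thus at 73.7% of control with shRNA63 and 73.5% with shRNA95, without a call (q = 0.155 and 0.164 in the authors' deposited tables). ME1 stood at 1.41 FPKM with shRNA95, against 1.31 FPKM in control cells.

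Of the cytosolic synthesis genes ACACA, ACACB and FASN none was called with either hairpin. ACOT7, the thioesterase grouped with them here, was called with shRNA63. FASN stood at 188 FPKM with shRNA63, against 246 FPKM in control cells, with a log2 fold change of -0.38 (95% interval -1.37 to 0.60) in the authors' deposited table. With shRNA95 it stood at 364 FPKM, against 238 FPKM in control cells, with a log2 fold change of 0.61 (95% interval -0.46 to 1.68) in the authors' deposited table. Neither interval excludes 0, and either one reaches past a doubling or a halving. ACACA, the main cytosolic carboxylase, had 33.3 FPKM with shRNA63, against 46.1 FPKM in control cells, and 47.9 FPKM with shRNA95, against 44.7 FPKM in control cells. ACACB, its mitochondrial counterpart, had 7.40 FPKM with shRNA63, against 5.74 FPKM in control cells, and 5.29 FPKM with shRNA95, against 5.56 FPKM in control cells. The carboxylases thus leaned opposite ways with shRNA63 without a call. ACOT7 stood at 102 FPKM with shRNA95, against 88.5 FPKM in control cells (q = 0.857 in the authors' deposited table). The genes of the separate mitochondrial synthesis route, MCAT, OXSM and MECR, had log2 fold changes of -0.35, 0.06 and -0.10 with shRNA63 in the authors' deposited table. Those of shRNA95 were 0.13, 0.25 and 0.24, and none of the 3 was called with either hairpin.

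Of the 5 desaturases none was called with either hairpin. SCD, which puts the first double bond into stearate and palmitate, stood at 131 FPKM with shRNA63, against 141 FPKM in control cells, and at 167 FPKM with shRNA95, against 136 FPKM in control cells. Its 95% intervals, -0.63 to 0.42 with shRNA63 and -0.26 to 0.84 with shRNA95 on the log2 scale, exclude a doubling and a halving. SCD5, the second human enzyme of this kind, was much less abundant. It had 4.90 FPKM with shRNA63, against 7.24 FPKM in control cells (unadjusted p = 0.00525, q = 0.0835 in the authors' deposited table). With shRNA95 it had 9.31 FPKM, against 7.02 FPKM in control cells (unadjusted p = 0.0332, q = 0.319 in the authors' deposited table). SCD5 lay below control with one hairpin and above it with the other. FADS2, the delta-6 desaturase of polyunsaturated fatty acids, stood at 346 FPKM with shRNA63, against 413 FPKM in control cells, and at 519.7 FPKM with shRNA95, against 400.2 FPKM in control cells. FADS1, the delta-5 desaturase, had 58.5 FPKM with shRNA63, against 102 FPKM in control cells, and 138 FPKM with shRNA95, against 98.6 FPKM in control cells. The errors of FADS1 were 1.40 and 1.33 on the log2 scale, too wide to show a change of this size. FADS3, a further member of the family, was near control with both hairpins, at 107% with shRNA63 and 108% with shRNA95.

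The elongation genes held the largest differences in fold change between the hairpins, those of ELOVL6 and ELOVL7. ELOVL6, which elongates palmitate to stearate, had 8.64 FPKM with shRNA63, against 21.4 FPKM in control cells, and 34.9 FPKM with shRNA95, against 20.8 FPKM in control cells. Its errors of 1.38 and 1.31 on the log2 scale leave both fold changes, -1.31 and 0.75 in the authors' deposited tables, without a call. ELOVL5, an elongase of polyunsaturated chains, had 61.9 FPKM with shRNA63, against 87.9 FPKM in control cells (q = 0.0953 in the authors' deposited table). With shRNA95 it had 119 FPKM, against 85.2 FPKM in control cells (q = 0.134 in the authors' deposited table). ELOVL5 had smaller errors than ELOVL6, 0.27 with each hairpin, and its group values lay on opposite sides of control. Its 95% intervals, -1.04 to 0.03 with shRNA63 and -0.04 to 1.01 with shRNA95 on the log2 scale, include 0. These intervals rest on the test statistic, which is less tight than the deposited p. The unadjusted p of the authors' Cuffdiff test was 0.0063 with shRNA63 and 0.00885 with shRNA95. ELOVL7, an elongase of long saturated chains, had 1.04 FPKM with shRNA63, against 1.75 FPKM in control cells, and 2.66 FPKM with shRNA95, against 1.70 FPKM in control cells. ELOVL1 stood at 78.6 FPKM with shRNA63, against 73.1 FPKM in control cells. The enzymes that complete each elongation round did not share one direction. HSD17B12, the ketoacyl reductase, stood at 89.1% of control with shRNA63 and 119% with shRNA95, and TECR, the enoyl reductase, at 111% and 158%. HACD3, a dehydratase, was at 68.7% with shRNA63 and 74.5% with shRNA95 (q = 0.0682 and 0.276 in the authors' deposited tables).

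Of the acyl-CoA synthetases, ACSL3 and ACSL4 had the highest levels. ACSL3, of lipid droplets and endoplasmic reticulum, had 75.6 FPKM with shRNA63, against 65.5 FPKM in control cells, and 70.2 FPKM with shRNA95, against 63.5 FPKM in control cells. ACSL4, which prefers arachidonate, had 49.8 FPKM with shRNA63, against 45.2 FPKM in control cells, and 38.5 FPKM with shRNA95, against 43.8 FPKM in control cells. All 4 values of these genes over control lay between 88.0% and 115%. ACSL1 had 5.22 FPKM with shRNA63, against 5.35 FPKM in control cells. With shRNA95 it had 11.6 FPKM, against 5.19 FPKM in control cells, with the largest log2 fold change of the pathway in that table, 1.17 (error 0.79, q = 0.290 in the authors' deposited table). ACSL1 more than doubled in group value but had no call. ACSL5 stood at 26.2 FPKM with shRNA63, against 21.0 FPKM in control cells (q = 0.593 in the authors' deposited table).

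Of the glycerolipid genes, which place acyl chains on glycerol, DGAT1 alone was called, with shRNA95. It is listed on chromosome 8 from 145539954 to 145550573 in hg19. It stood at 57.2 FPKM with shRNA63, against 48.7 FPKM in control cells. DGAT2, an unrelated enzyme of the same reaction, had 9.92 FPKM with shRNA63, against 10.3 FPKM in control cells, and 8.10 FPKM with shRNA95, against 10.0 FPKM in control cells. AGPAT1, which acylates lysophosphatidate, had 46.3 FPKM with shRNA63, against 48.5 FPKM in control cells, and 55.1 FPKM with shRNA95, against 47.0 FPKM in control cells. LPIN1, which encodes a phosphatidate phosphatase, was at 97.5% of control with shRNA63 and 74.6% with shRNA95, and neither gene was called. Of the carbohydrate response factors MLXIP had 52.6 FPKM with shRNA63, against 34.5 FPKM in control cells (q = 0.217 in the authors' deposited table). With shRNA95 it had 38.9 FPKM, against 33.4 FPKM in control cells, and neither value was called.

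The hairpins were then set against each other, as the difference of their log2 fold changes, shRNA63 minus shRNA95. The control values of the tables differ by 1 factor (1.03 at the median, 1.03 at the 1st and 99th percentiles over 14233 genes), so the control level cancels in this difference. The two-sided test divides this by the combined error and reads it as a normal deviate, adjusted over 13870 genes by Benjamini and Hochberg. None of the 33 genes passed at an adjusted p under 0.05, where 1.08% of all genes passed, 0.353% higher and 0.728% lower. On simulated data the test missed differences of the size that ME1, ACOT7 and ELOVL5 had here, so the absence of calls does not show that the hairpins acted alike on such genes. At an unadjusted p under 0.05, 1 gene was higher and 4 were lower with shRNA63 than with shRNA95, where all genes gave 1.88% and 3.55%, 5.44% together. From the errors in the authors' deposited tables the higher one was ME1, with a difference of 1.07 (error 0.41, 95% interval 0.26 to 1.87, adjusted p = 0.361). From the same errors in the authors' deposited tables the lower ones were ACOT7 at -1.02 (error 0.37, adjusted p = 0.259), ELOVL5 at -0.99 (error 0.38, adjusted p = 0.367), SCD5 at -0.97 (error 0.40, adjusted p = 0.476) and ELOVL7 at -1.41 (error 0.71, adjusted p = 0.911). The intervals were -1.75 to -0.30 for ACOT7 and -1.74 to -0.24 for ELOVL5. Like those of ME1, SCD5 and ELOVL7, they leave out 0 before adjustment. This adds no support, because the intervals use the same errors as the unadjusted p that picked these genes. FASN differed by -0.99 with an interval from -2.45 to 0.46, and ELOVL6 by -2.06 with an interval from -5.80 to 1.67. These wide intervals include both no difference and a large one. The median difference of the 33 genes was -0.47, beside -0.04 for all genes tested, with 25 negative. Among the negative ones were all 5 desaturases, all 7 measured elongation genes and all 3 mitochondrial synthesis genes. The activation genes and the glycerolipid genes each split into 2 negative and 2 positive. Of all 13870 genes tested, 7504 were negative. ACSS1, FADS3 and ACSL3 had the differences nearest 0, at 0.00, -0.01 and 0.06, with intervals that reach from -0.97 to 1.09 for ACSL3. ACOT7, ELOVL5, ME1 and SCD5 passed the adjusted threshold once the control's share was taken out of the errors, or once errors were scaled to the deposited p. Under these settings 587 and 591 of all 13870 genes passed, against 150 before, so calls became more frequent in general.

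**Figure D3:**
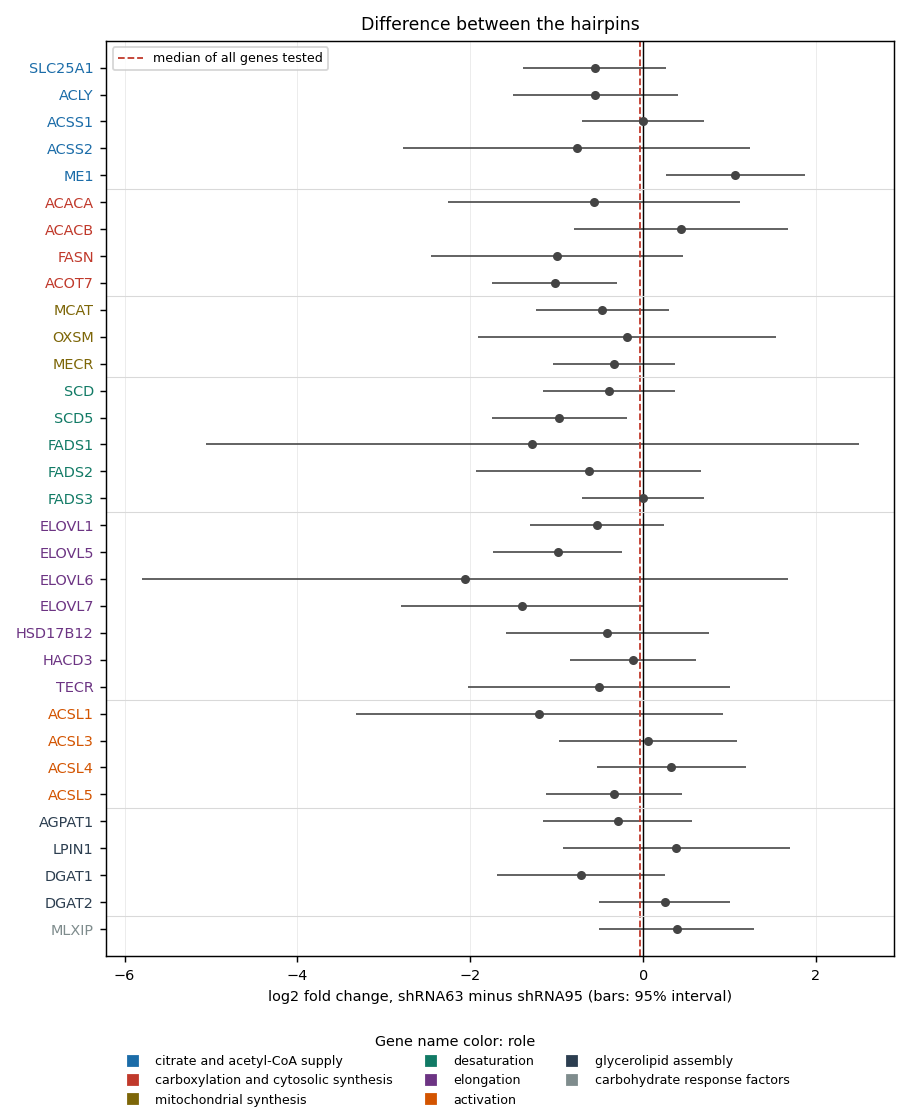
Difference of log2 fold changes, shRNA63 minus shRNA95, for the 33 measured genes with 95% intervals; the dashed line is the median of all genes tested, -0.04. Most points lie left of 0, ME1 lies right of it at 1.07, and the intervals of FADS1 and ELOVL6 are the widest.

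Genes around the pathway were read as lists, beside all genes tested, of which 2.52% were called higher and 3.29% lower with shRNA63 and 3.11% higher and 2.01% lower with shRNA95. Of 11 SREBP and LXR regulators 1 was called higher and 2 lower with shRNA63, and 2 higher and none lower with shRNA95. SREBF1, which encodes the SREBP that drives fatty acid genes, had 111 FPKM with shRNA63, against 109 FPKM in control cells, and 113 FPKM with shRNA95, against 106 FPKM in control cells. SREBF2, its relative for sterol genes, had 68.7 FPKM with shRNA63, against 96.4 FPKM in control cells, and 111 FPKM with shRNA95, against 93.4 FPKM in control cells. Neither SREBP gene was called in either table. INSIG1, which holds SREBPs in the endoplasmic reticulum and is itself a target of theirs, was at 44.0 FPKM with shRNA63, against 97.3 FPKM in control cells (q = 0.00214 in the authors' deposited table). With shRNA95 it was at 159.5 FPKM, against 94.3 FPKM in control cells (q = 0.00401 in the authors' deposited table). INSIG1 fell with shRNA63 and rose with shRNA95, a difference of -1.90 with errors from the authors' deposited tables (error 0.41, adjusted p = 0.000632). MBTPS2, the intramembrane protease that frees SREBPs, fell with shRNA63 to 4.30 FPKM, against 7.10 FPKM in control cells. NR1H2, which encodes the receptor LXR-beta, rose with both, to 29.1 FPKM with shRNA63, against 16.1 FPKM in control cells, and to 26.2 FPKM with shRNA95, against 15.6 FPKM in control cells.

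Of 21 measured genes of cholesterol synthesis and uptake none was called higher and 1 lower with shRNA63, and 4 higher and none lower with shRNA95, where all genes gave 3.11% and 2.01% with shRNA95 and 2.52% and 3.29% with shRNA63. The list median was -0.14 with shRNA63, beside 0.01 for all genes tested, and 0.56 with shRNA95, beside 0.03, on the log2 ratio scale. For the difference shRNA63 minus shRNA95 the median of this list was -0.76, with 20 of 21 negative. The fatty acid genes had -0.47 there and all genes tested -0.04, so the lean was not particular to the fatty acid genes. HMGCS1, an early enzyme of the mevalonate route, fell to 46.7 FPKM with shRNA63, against 86.9 FPKM in control cells. MSMO1, HSD17B7, EBP and DHCR7, enzymes of the later steps, rose with shRNA95, with log2 fold changes from 0.70 for EBP to 0.97 for HSD17B7 in the authors' deposited table. Of 12 genes of NADPH supply none was called with shRNA63, and at an unadjusted p under 0.05 there were 1 higher and 1 lower, where all genes gave 7.08% and 7.48%. Among them IDH1, the cytosolic isocitrate dehydrogenase, fell to 19.8 FPKM with shRNA95, against 35.4 FPKM in control cells, while with shRNA63 it had 51.4 FPKM, against 36.5 FPKM in control cells. IDH1 differed by 1.33 between shRNA63 and shRNA95 with errors from the authors' deposited tables (error 0.36, adjusted p = 0.0221).

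**Figure D4:**
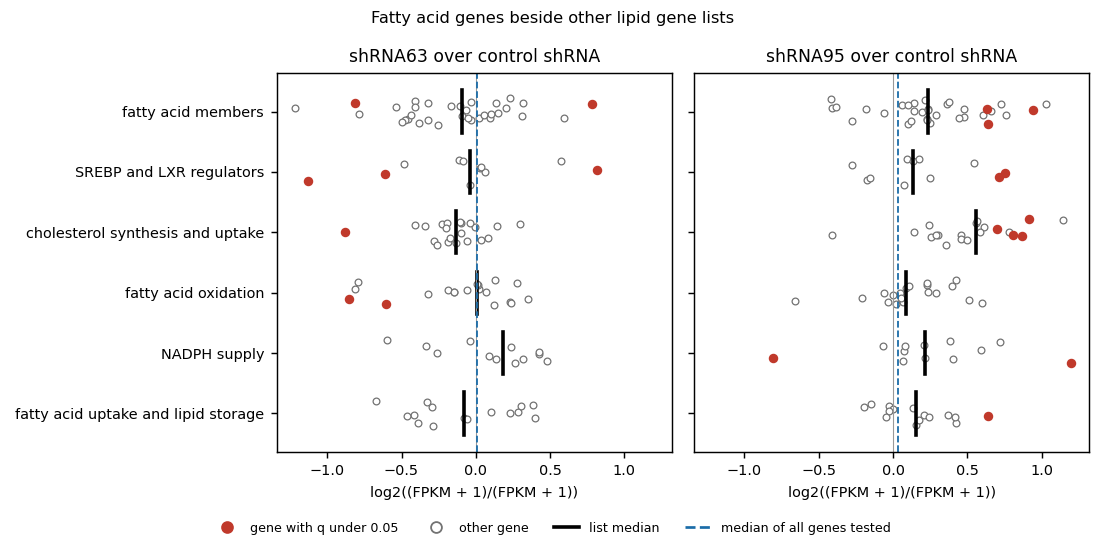
Log2 ratio of FPKM + 1 for each measured gene of the fatty acid pathway and of 5 other lipid lists, with shRNA63 (left) and shRNA95 (right) over control shRNA. Red points have q under 0.05, black bars are list medians and the dashed line is the median of all genes tested; the fatty acid median is -0.09 at left and 0.23 at right.

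In the comparison of AML1-ETO knockdown with its control none of the 37 tested genes was called, where 0.373% of all 21727 tested genes were, 0.198% higher and 0.175% lower. This table has 1 library a group, so its test compares those libraries and not the conditions. At an unadjusted p under 0.05 there was 1 gene, ELOVL4, which was lower, beside 4.95% of all genes, 2.32% higher and 2.63% lower. ELOVL4, which makes very long chains in retina and skin, had a log2 fold change of -2.61 (error 0.59, q = 0.281) in the authors' deposited table, and lay under 1 FPKM in both JMJD1C tables. FASN was at -0.33 (error 0.79), ACLY at -0.61 (error 0.48), SCD at -0.33 (error 0.47) and SCD5 at -0.98 (error 0.67), all by the authors' deposited table. The 5 genes called with a JMJD1C hairpin had -0.51 for ME1, -0.29 for ACOT7, 0.45 for ELOVL1, -0.12 for ACSL5 and 0.67 for DGAT1 in the authors' deposited table. The 95% intervals of all 5 include 0. The median over the 37 genes was -0.24, beside -0.01 for all genes tested, with 24 negative in the authors' deposited table. Of all 21727 genes tested, 11066 were negative. Among the 33 genes measured with the JMJD1C hairpins, 32 had here a 95% interval that reached a doubling or a halving.

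**Figure D5:**
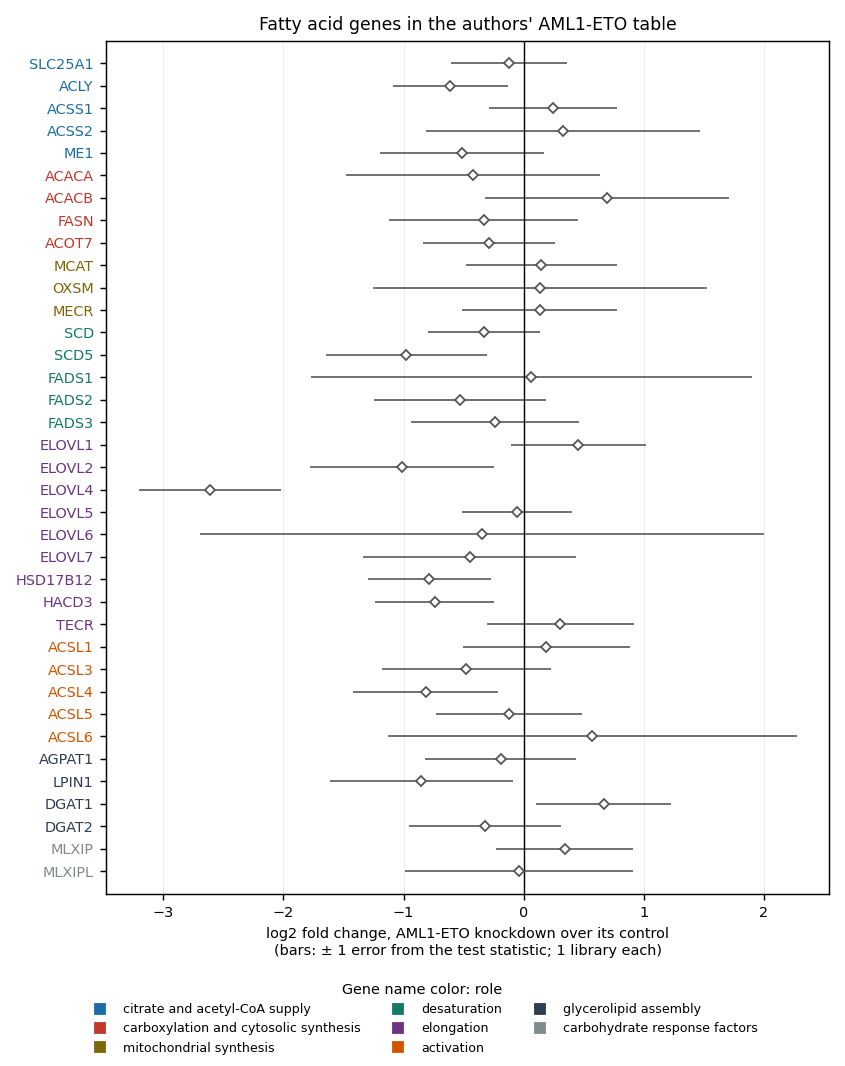
Log2 fold change of AML1-ETO knockdown over its control in the authors' deposited table for the 37 tested genes, with bars of 1 error and 1 library a group. ELOVL4 at -2.61 stands apart from the other genes, which lie between -1.01 and 0.69.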

How the data were processed

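RNA from Kasumi-1 cells was sequenced. The submitters' processing notes name TopHat2 2.0.8b, Cuffdiff 2.1.1 and hg19, with no role or order. For strandedness the sources used here give nothing. Per the file headers, the authors deposited 1 FPKM value per group, a log2 fold change, a test statistic (a score per gene), a p-value and an adjusted q-value for each gene. The 2 FPKM columns of the AML1-ETO table are of libraries from another series and stayed out of use. Without them a level filter could not be applied to that table, so its tested genes were taken.

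From these values errors, 95% intervals, log2 ratios with a pseudocount of 1 FPKM and the difference between hairpins were computed with Python 3.11.15, pandas 2.3.3 and scipy 1.17.1. For that difference the 10th percentile served as the smallest error allowed. The difference test was also run on simulated data with noise of the size of these errors, in part shared between the hairpins. It made no false calls there, but its errors count the shared noise in full, so few could arise. The test recovered 0% of simulated log2 differences of 1, about the size seen for ME1, ACOT7 and ELOVL5, and 49.5% of those of 2. It counts the shared control in both errors, and it rests on a normal approximation because 1 value per group allows no exact test over libraries. The deposited p-values are tighter than the statistic: as a normal deviate, p was 1.42 times the statistic in both JMJD1C tables, so the errors given are the wider reading. The smallest deposited p is 5e-05. Of 48 rows that carry a member symbol, 10 on haplotype or patch sequences were all at 0 FPKM in the JMJD1C tables and were left out.

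Genes given in full are those called in a table or differing between hairpins and a fixed set of key enzymes, with the other members more briefly; in other lists they are SREBF1, SREBF2, INSIG1 and up to 4 called genes. The members and lists were chosen with earlier results of these data known. A result on 1 gene of the other lists is not reported here. Alternatives were other thresholds, level filters, pseudocounts, scalings and errors.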

Additional observations from a re-analysis of the deposited data

Results flagged for a closer look

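INSIG1 differed between the hairpins, with log2 fold changes of -1.15 with shRNA63 and 0.76 with shRNA95 in the authors' deposited tables and a difference of -1.90 (error 0.41, adjusted p = 0.000632 from the normal test with Benjamini-Hochberg adjustment). IDH1 also differed, with 0.49 with shRNA63 and -0.84 with shRNA95 in the authors' deposited tables and a difference of 1.33 (error 0.36, adjusted p = 0.0221). These are the only genes of the 6 lipid lists named in the text that passed this test, and neither is a fatty acid synthesis, elongation or activation gene. With 1 value per group, no search for a single library apart from its group could be made.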

How the results depend on the processing

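The number of genes called with shRNA63 was 2, and it became 5 (1 higher, 4 lower) at q under 0.10, adding SCD5, ELOVL5 and HACD3, and 1 with at least 5 FPKM, which leaves out ME1. With shRNA95 it was 3, and 1, DGAT1, at q under 0.01. The shares of all genes called at these other settings are not given here, so these counts cannot be read against a background. Between the hairpins none passed; 4 passed (ACOT7, ELOVL5, ME1 and SCD5) with errors scaled to the deposited p, and 4, the same genes, with the control's share taken out of the errors. With both together, an alternative chosen after seeing the data, 6 passed, adding DGAT1 and ELOVL7, and genes passing in all went to 1576 from 150. The count over all genes was 591 and 587 under these settings one at a time, 297 with no smallest error and 98 at a threshold of 0.01, where no member passed under the last pair. With AML1-ETO knockdown the count was 0 under every alternative run. The member median ran from -0.10 to -0.05 with shRNA63 and from 0.18 to 0.24 with shRNA95 over the pseudocounts, filters and scalings. Of 72 values of named genes under another scale or centring 71 moved by less than their error; ME1 with shRNA63 was at 0.78 on the log2(FPKM + 1) scale, against 1.17. No paired analysis was possible because the tables hold 1 value per group, and for the same reason no replicate could be left out. The median error over all genes with shRNA63 was 0.58 at 1 to 5 FPKM and 0.29 above 100 FPKM, though single genes depart from this; the part of depth was not tested.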

Other observations

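Genes of fatty acid breakdown and uptake lie next to the pathway. Of 19 measured genes of fatty acid oxidation none was called higher and 2 lower with shRNA63, and none was called with shRNA95, where 2 were higher at an unadjusted p under 0.05 of the authors' Cuffdiff test. Of all genes tested 2.52% were called higher and 3.29% lower with shRNA63, 5.11% were called with shRNA95, and 8.09% were higher at that unadjusted p with shRNA95, so 2 of 19 there is near the background. CPT1A, which makes the acylcarnitines that enter mitochondria, fell to 11.1 FPKM with shRNA63, against 20.8 FPKM in control cells, and had 21.5 FPKM with shRNA95, against 20.1 FPKM in control cells. ECI1, an isomerase needed for unsaturated chains, fell to 42.2 FPKM with shRNA63, against 64.6 FPKM in control cells, and had 84.3 FPKM with shRNA95, against 62.6 FPKM in control cells. Neither difference between the hairpins passed the adjusted test, with errors from the authors' deposited tables (adjusted p = 0.441 for CPT1A and 0.220 for ECI1). Of 15 measured genes of fatty acid uptake and lipid storage none was called with shRNA63, with 1 higher and 2 lower at an unadjusted p under 0.05 of the same test, where all genes gave 7.08% and 7.48%. With shRNA95 1 rose, where 3.11% of all genes did: DBI, the acyl-CoA-binding protein, stood at 237 FPKM with shRNA95, against 152 FPKM in control cells, and at 205.5 FPKM with shRNA63, against 157 FPKM in control cells.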
